A study of Mus musculus with 6 samples.

Results

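The genes described here are 10 members of the BCL2 family, which decides whether a cell enters mitochondrial apoptosis. They were taken by symbol from a table of 23420 gene symbols: Bcl2, Bcl2l1, Bcl2l2, Mcl1, Bax, Bak1, Bcl2l11, Bbc3, Bid and Bad. All 10 had a row, and all 10 passed the filter on low counts that left 14340 genes to test. RNA was sequenced from mouse embryonic stem (ES) cells in self-renewing culture, a pluripotent cell type. One group had been stably transduced with a lentivirus for KBP(KK/RR), a mutant of the Kif1-binding protein that the labels call stable (replicates 4, 5 and 6). The other carried the same kind of virus for wild-type KBP (replicates 1, 2 and 3). Both groups were thus transduced, and the comparison asks how cells given the mutant differ from cells given the wild-type protein. The strain of the cells, the promoter of the virus and whether the replicates were separate cultures were not stated in the labels used here, so p-values measure only the spread between these libraries.

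In the mitochondrial pathway, the proteins Bax and Bak, the effectors, assemble in the outer mitochondrial membrane and release cytochrome c, which activates caspases. The pro-survival proteins Bcl-2, Bcl-xL (gene Bcl2l1), Bcl-w (Bcl2l2) and Mcl-1 hold the effectors in check. The BH3-only proteins Bim (Bcl2l11), Puma (Bbc3), Bid and Bad carry stress signals to the pro-survival proteins, and some of them also to the effectors. Pluripotent stem cells are known for entering mitochondrial apoptosis readily after damage.

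Total counts ran from 24300832 to 29863560 in the KBP(KK/RR) libraries and from 24131743 to 32160411 in the wild-type KBP libraries. The KBP gene, listed as 2510003E04Rik, measured 56.3, 59.6 and 53.9 CPM (CPM is a count relative to the library total, scaled by the TMM method) in KBP(KK/RR) cells, against 48.3, 47.0 and 49.6 CPM in wild-type KBP cells. Its log2 fold change was 0.23 (edgeR adjusted p = 0.0133), and the call was lost when KBP(KK/RR) replicate 5 (0.0735) or wild-type KBP replicate 2 (0.0908) was left out. A count per gene does not separate the cell's own transcript from that of the virus. Of 8 ES cell markers 0 were called by edgeR or DESeq2 and 3 had an unadjusted edgeR p under 0.05. Their log2 fold changes were 4 positive and 4 negative, and 4 markers were without overlap between groups. Over all genes tested, edgeR called 3.12%, 18.6% had an unadjusted p under 0.05, and 22.4% were without overlap. Pou5f1 averaged 1435 ± 55.8 CPM in KBP(KK/RR) cells and 1451 ± 58.9 CPM in wild-type KBP cells, with overlap (SD, n = 3 each). Without overlap, Nanog (334 ± 9.61 and 313 ± 9.93 CPM) and Dppa5a (1276 ± 26.8 and 1224 ± 26.2 CPM) had the higher values in KBP(KK/RR) cells, and Esrrb (662 to 690.3 and 698 to 741 CPM) and Klf4 (307 ± 8.30 and 327 ± 3.36 CPM) in wild-type KBP cells. Of 8 fibroblast or feeder markers, Dcn, Lum and Postn stayed under the count filter and 0 were called. Among the 5 tested, 3 log2 fold changes were positive and 2 negative. Col1a1, with the smallest p of these, had a log2 fold change of -0.17 (edgeR adjusted p = 0.330). Col3a1 was scarce and higher in KBP(KK/RR) cells without overlap, at 0.927 and 0.686 CPM (log2 fold change 0.42, edgeR adjusted p = 0.378). Primitive endoderm markers summed to 103 to 114 CPM in KBP(KK/RR) cells and 120.4 to 141 CPM in wild-type KBP cells, with Afp and Foxa2 under the filter. Most of that sum was Col4a1, at 89.4 to 97.6 CPM in KBP(KK/RR) cells and 105 to 122 CPM in wild-type KBP cells. Gata4, Gata6, Sox17 and Dab2 overlapped between groups and were not called (log2 fold changes -0.19, -0.19, 0.07 and -0.09). Of the 6 tested, the receptor gene Pdgfra (log2 fold change -0.68) and the collagen gene Col4a1 (-0.25) fell (edgeR adjusted p 0.0342 and 0.0170), but neither call was firm. Pdgfra was called with wild-type KBP replicate 1 left out and with no other library left out. Col4a1 lost its call when KBP(KK/RR) replicate 5 (0.0866) or 6 (0.114), or wild-type KBP replicate 3 (0.0613), was dropped. In bulk RNA, fewer cells of a type and less RNA per cell cannot be told apart. The part of these markers in the values below was not tested.

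The members lie on 8 chromosomes, and per transcript length their levels span a wide range, with Bax and Mcl1 at the top and Bcl2 at the bottom. The 250 bases before the RefSeq start of these 3 genes (GRCm38.p6) are shown because they precede the most and the least abundant transcripts of the family. Each is written 5′ to 3′ on the gene's strand, and capitals mark GC boxes (GGGCGG or, on the other strand, CCGCCC).
Bax, chr7:45466899-45467148, minus strand: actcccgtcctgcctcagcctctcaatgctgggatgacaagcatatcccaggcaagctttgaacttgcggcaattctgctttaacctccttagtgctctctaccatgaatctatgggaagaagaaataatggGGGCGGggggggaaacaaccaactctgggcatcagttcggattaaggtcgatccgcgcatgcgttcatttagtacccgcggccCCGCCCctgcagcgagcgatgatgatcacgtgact
Mcl1, chr3:95658471-95658720, plus strand: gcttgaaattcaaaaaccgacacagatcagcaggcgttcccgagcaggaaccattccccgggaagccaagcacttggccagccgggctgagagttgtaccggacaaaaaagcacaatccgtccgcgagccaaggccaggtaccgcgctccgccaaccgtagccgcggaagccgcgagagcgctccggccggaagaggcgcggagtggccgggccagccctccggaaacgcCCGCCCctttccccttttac
Bcl2, chr1:106714291-106714540, minus strand: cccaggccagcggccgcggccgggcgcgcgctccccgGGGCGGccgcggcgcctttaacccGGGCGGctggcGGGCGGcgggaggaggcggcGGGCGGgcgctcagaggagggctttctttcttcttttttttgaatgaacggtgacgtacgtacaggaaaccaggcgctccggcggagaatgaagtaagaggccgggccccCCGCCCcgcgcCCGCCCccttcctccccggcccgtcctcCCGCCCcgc
The Bcl2 window held 7 GC boxes and 36 CpG dinucleotides, the Mcl1 window 1 and 26, and the Bax window 2 and 14. The median over all windows was 6 CpG dinucleotides. For Mcl1, the bases just after the RefSeq start were not found in an annotated transcript (GENCODE M21), whose gene starts later, at 95658788. RefSeq gave 16 such windows for the 10 members, and 11 of them (68.8%), belonging to 8 members, held a GC box on either strand. Over all 32851 windows the share was 32.7%, and 35.4% of all genes had a GC box in at least 1 window. The windows of Bcl2l1 and Bak1 held none. A TATA box (TATAAA or TTTATA) was in 0 member windows and in 12.4% of all windows. Bbc3 windows 2 and 3 overlap each other. For Bbc3 windows 1 and 2, which both held a GC box, the bases after the start were not found in an annotated transcript either. A match describes letters only.

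Bax had the highest level per kilobase of its longest annotated transcript, at 237 ± 14.5 CPM per kilobase in KBP(KK/RR) cells and 236 ± 7.76 in wild-type KBP cells. Mcl1 came next, at 149.7 ± 3.64 and 139.8 ± 3.04 CPM per kilobase in KBP(KK/RR) and wild-type KBP cells. Averaged over all 6 libraries, Bak1 followed at 35.3, Bid at 32.6, Bcl2l1 at 22.8, Bbc3 at 18.3, Bad at 5.88, Bcl2l2 at 4.39 and Bcl2 at 0.257 CPM per kilobase. Bcl2l11 lay between Bbc3 and Bad, at 9.81 to 10.4 CPM per kilobase. Bak1 (33.8 to 36.5) and Bid (31.1 to 34.2) overlapped across the 6 libraries, and no other neighbours in this order did. Bcl2l2 stood 17.1 times above Bcl2. With the union of all annotated exons as the length, Bax was at 165 and Mcl1 at 145 CPM per kilobase, Bbc3 passed Bcl2l1, and Bcl2l2 passed Bad.

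**Figure D1:**
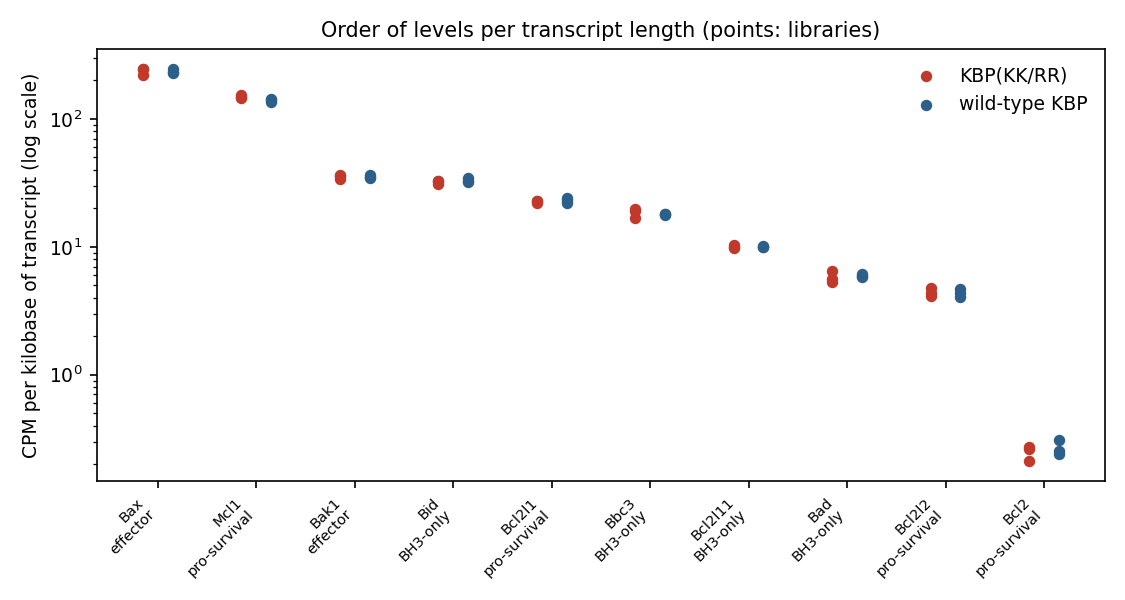
Level of each BCL2 family gene per kilobase of its longest transcript (CPM per kilobase, log axis), highest mean on the left. Each point is 1 library, with KBP(KK/RR) left of wild-type KBP. Bax (220.4 to 246) and Mcl1 (136 to 154) lie above the rest and Bcl2 (0.210 to 0.309) below it.

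The makeup of the family moved by a few percentage points between libraries. Of the summed level per kilobase of the 10 genes, the pro-survival genes made up 35.7%, 33.2% and 34.0% in KBP(KK/RR) cells and 33.7%, 33.7% and 32.0% in wild-type KBP cells. The effectors made up 51.3%, 54.1% and 53.0% in KBP(KK/RR) cells and 53.2%, 53.0% and 54.7% in wild-type KBP cells, and the BH3-only genes 12.7% to 13.0% and 13.1% to 13.4%. The groups overlapped for the pro-survival and effector shares and did not for the BH3-only share, which was lower in KBP(KK/RR) cells. The summed CPM of the BH3-only genes did overlap, at 167, 170.4 and 175 CPM in KBP(KK/RR) cells and 169.6, 172 and 175 CPM in wild-type KBP cells, and the share also depends on the other members in its total. Mcl1 supplied 84.3% to 85.0% of the pro-survival sum in KBP(KK/RR) cells and 82.7% to 84.1% in wild-type KBP cells. The ratio of Bax to Bcl2 per kilobase was 842, 1167 and 905 in KBP(KK/RR) cells and 759, 914 and 1029.5 in wild-type KBP cells, which overlap. That of Mcl1 to Bcl2l1 was 6.52, 6.65 and 6.80 in KBP(KK/RR) cells and 6.10, 6.41 and 5.64 in wild-type KBP cells, which do not. The shares and ratios per kilobase use the longest transcript as the length. With the union of exons, the level of Bax over all 6 libraries fell from 237 to 165 CPM per kilobase. That of Mcl1 stayed at 145, so the shares depend on the choice of length. These sums and ratios are descriptions and were not tested.

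None of the 10 members passed the threshold of an adjusted p under 0.05. edgeR's quasi-likelihood test called 0 of them higher, against 1.05% of all 14340 genes tested, and 0 lower, against 2.07%, or 3.12% (448 genes) in either direction. DESeq2 left Bcl2 without an adjusted p and called 0 of the other 9, against 3.10% of 9613 genes. An unadjusted p under 0.05 was reached by 1 member, Mcl1, and by 18.6% of all tested genes. The groups did not overlap for that 1 member, against 22.4% of all tested genes. The members' median log2 fold change was 0.003, and -0.002 over all genes tested. The median size of the change, regardless of sign, was 0.039 for the members and 0.082 for all genes tested. The members and all genes were not matched for level, so these sizes do not show that the family is unusually steady. Intervals below are 95% intervals of 1 gene, unadjusted for the number of genes.

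**Figure D2:**
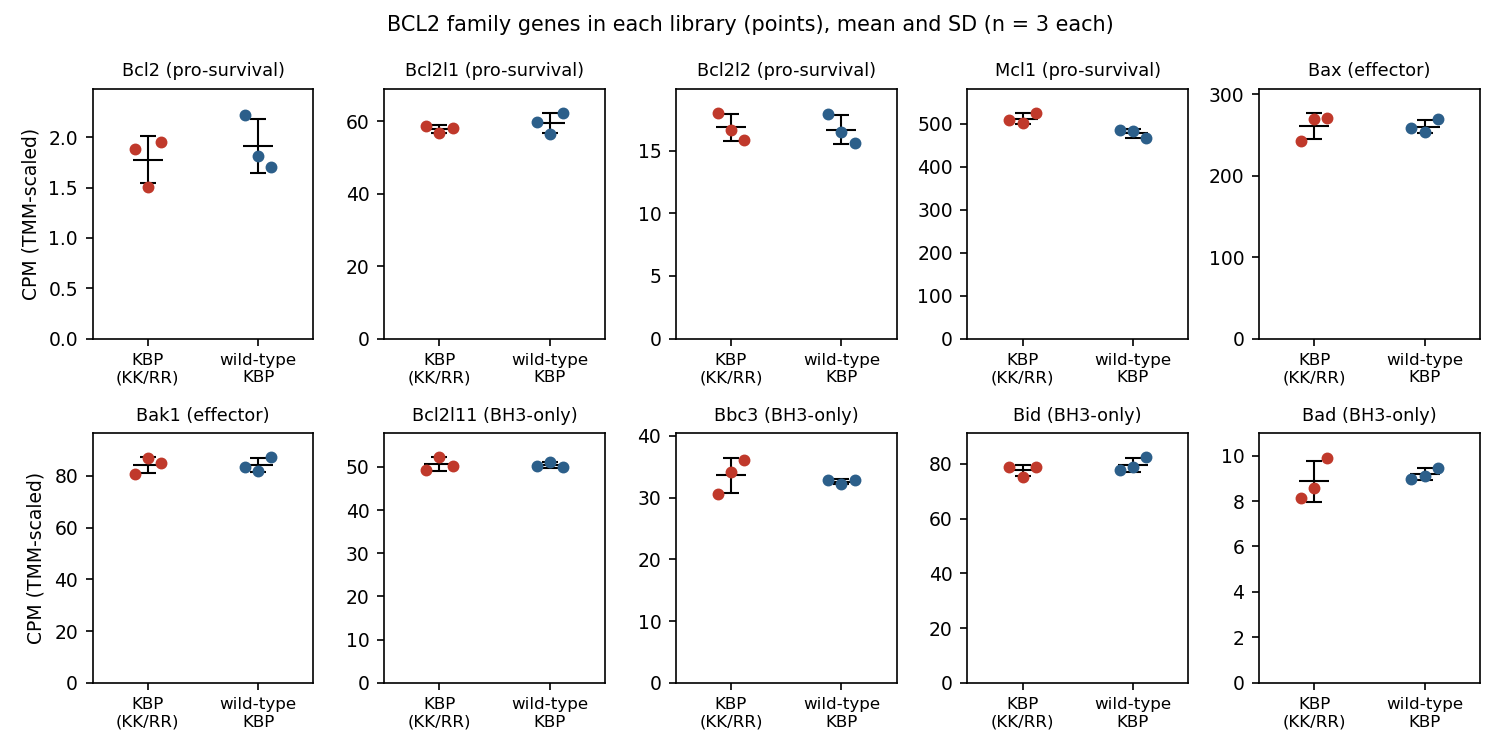
CPM of each BCL2 family gene in each library (points), with mean and SD (n = 3 per group), KBP(KK/RR) left of wild-type KBP and each axis starting at 0. The groups overlap for all genes except Mcl1, where KBP(KK/RR) libraries lie between 500.5 and 525 CPM and wild-type KBP libraries between 466 and 485 CPM.

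Among the pro-survival genes, Mcl1 (chromosome 3, 95658788 to 95663176 on GRCm38), whose protein turns over quickly, came nearest to a difference. It measured 509, 500.5 and 525 CPM in KBP(KK/RR) cells, against 485, 482 and 466 CPM in wild-type KBP cells. Each KBP(KK/RR) library was above each wild-type KBP library. The log2 fold change was 0.10 (SE 0.04, interval 0.02 to 0.18, 1.07-fold), with an unadjusted p of 0.0157 and an edgeR adjusted p of 0.162 (DESeq2 0.204). Over the alternatives its edgeR, limma or DESeq2 adjusted p ran from 0.0900 with upper-quartile scaling to 0.467 without KBP(KK/RR) replicate 6. Bcl2l1 (chromosome 2, 152780668 to 152831728), which encodes the long-lived inhibitor Bcl-xL, measured 58.6, 56.6 and 58.0 CPM in KBP(KK/RR) cells and 59.8, 56.5 and 62.1 CPM in wild-type KBP cells. The groups overlapped, with a log2 fold change of -0.04 (SE 0.05, interval -0.14 to 0.06, edgeR adjusted p = 0.700). Counts per gene do not separate its splice forms, nor those of Mcl1.

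Bcl2l2 (chromosome 14, 54883377 to 54888234), which encodes Bcl-w, measured 18.0, 16.7 and 15.9 CPM in KBP(KK/RR) cells and 17.9, 16.5 and 15.6 CPM in wild-type KBP cells. The groups overlapped, and the log2 fold change was 0.02 (SE 0.07, interval -0.13 to 0.17, edgeR adjusted p = 0.933). Bcl2 (chromosome 1, 106538178 to 106714274), the founding member of the family, had the lowest level of the 10. It had 56, 37 and 58 counts (1.88, 1.51 and 1.95 CPM) in KBP(KK/RR) cells and 58, 58 and 41 counts (2.22, 1.81 and 1.71 CPM) in wild-type KBP cells. With so few reads the interval of its log2 fold change was the widest of the 10, from -0.45 to 0.28 around -0.09 (SE 0.18, edgeR adjusted p = 0.826), so a change of up to 1.21-fold upward or to 0.730 of the wild-type KBP level lies within it.

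Neither effector gene passed the test. Bax (chromosome 7, 45461697 to 45466898) measured 242, 269.6 and 270.2 CPM in KBP(KK/RR) cells and 258, 253 and 269 CPM in wild-type KBP cells. The lowest and the highest library were both KBP(KK/RR) libraries, and the log2 fold change was 0.01 (SE 0.04, interval -0.09 to 0.10, edgeR adjusted p = 0.969). Bak1 (chromosome 17, 27019810 to 27029009) averaged 84.2 ± 3.12 CPM in KBP(KK/RR) cells and 84.2 ± 2.79 CPM in wild-type KBP cells (SD, n = 3 each). Its libraries read 80.8, 86.9 and 85.0 CPM in KBP(KK/RR) cells and 83.5, 81.8 and 87.2 CPM in wild-type KBP cells, with an interval from -0.09 to 0.10 around a log2 fold change of 0.0014 (edgeR adjusted p = 0.991). A change beyond 1.07-fold upward in either gene lies outside these intervals.

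No BH3-only gene passed the test. Bcl2l11 (chromosome 2, 128126038 to 128162547), which encodes Bim, a binder of all pro-survival proteins, measured 49.4, 52.4 and 50.3 CPM in KBP(KK/RR) cells and 50.3, 51.2 and 50.0 CPM in wild-type KBP cells. Its log2 fold change was 0.0047 (SE 0.05, interval -0.09 to 0.10, edgeR adjusted p = 0.972). Bid (chromosome 6, 120891930 to 120916853), whose protein is cut by caspase 8 and links death receptors to mitochondria, measured 78.9, 75.2 and 78.7 CPM in KBP(KK/RR) cells and 77.6, 79.0 and 82.5 CPM in wild-type KBP cells. Those groups overlapped too, at a log2 fold change of -0.04 (SE 0.05, interval -0.13 to 0.06, edgeR adjusted p = 0.700).

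Bbc3 and Bad showed more spread among the KBP(KK/RR) libraries than among the others. Bbc3 (chromosome 7, 16308393 to 16318205), which encodes Puma and is a target of p53, measured 30.5, 34.2 and 36.1 CPM in KBP(KK/RR) cells, against 32.8, 32.2 and 32.8 CPM in wild-type KBP cells. Its SD was 2.81 CPM in KBP(KK/RR) cells and 0.326 CPM in wild-type KBP cells, and its log2 fold change was 0.04 (SE 0.06, interval -0.08 to 0.17, edgeR adjusted p = 0.744). Bad (chromosome 19, 6941861 to 6951899), whose protein is silenced by survival kinases, measured 8.13, 8.57 and 9.89 CPM in KBP(KK/RR) cells and 8.96, 9.10 and 9.47 CPM in wild-type KBP cells. Here too the wild-type KBP libraries fell inside the range of the others, and the log2 fold change was -0.05 (SE 0.09, interval -0.23 to 0.14, edgeR adjusted p = 0.824). Whether the spread differs between groups was not tested.

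Some members share exon bases with another annotated gene on GRCm38 (GENCODE M21), and the strand setting of the counting is not given in the sources used here. On the opposite strand, Gpr137 covers 20.5% of the exon bases of Bad, Ggnbp1, which has a pair of annotation entries there, 18.2% and 7.35% of those of Bak1, and Bcl2l13 17.7% of those of Bid. These neighbours were not called either: Gpr137 had a log2 fold change of -0.13 (edgeR adjusted p = 0.319), Ggnbp1 of -0.26 (0.160) and Bcl2l13 of -0.00011 (0.999). An antisense gene, D630008O14Rik, covers 6.09% of the exon bases of Bcl2, also on the opposite strand. On the same strand, Gm20521 shares 13.3% of the exon bases of Bcl2l2 and Gm45808 12.2% of those of Bax. Reads from the shared stretches could belong to either gene.

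The other BCL2 family genes were examined from a list that includes more distant relatives. Of 16 listed, 15 had a row and 10 could be tested, with a median log2 fold change of 0.05. Of the 10, 1 rose and 0 fell, against 1.05% and 2.07% of all genes tested. The groups did not overlap for 4 of the 10, against 22.4% of all genes tested. The gene that rose was Bnip3, which encodes a receptor for mitophagy with a BH3-like stretch and is induced by low oxygen. Bnip3 measured 39.0, 36.2 and 39.0 CPM in KBP(KK/RR) cells, against 27.1, 30.9 and 29.6 CPM in wild-type KBP cells, with no overlap. Its log2 fold change was 0.38 (SE 0.06, 1.30-fold, edgeR adjusted p = 5.71e-04), and it stayed called under each alternative, with a log2 fold change from 0.31 to 0.43. Its close relative Bnip3l, also a mitophagy receptor, measured 123, 114 and 118 CPM in KBP(KK/RR) cells and 113, 113 and 110.2 CPM in wild-type KBP cells. Its groups did not overlap either, but Bnip3l was not called (log2 fold change 0.08, SE 0.04, edgeR adjusted p = 0.293).

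**Figure D3:**
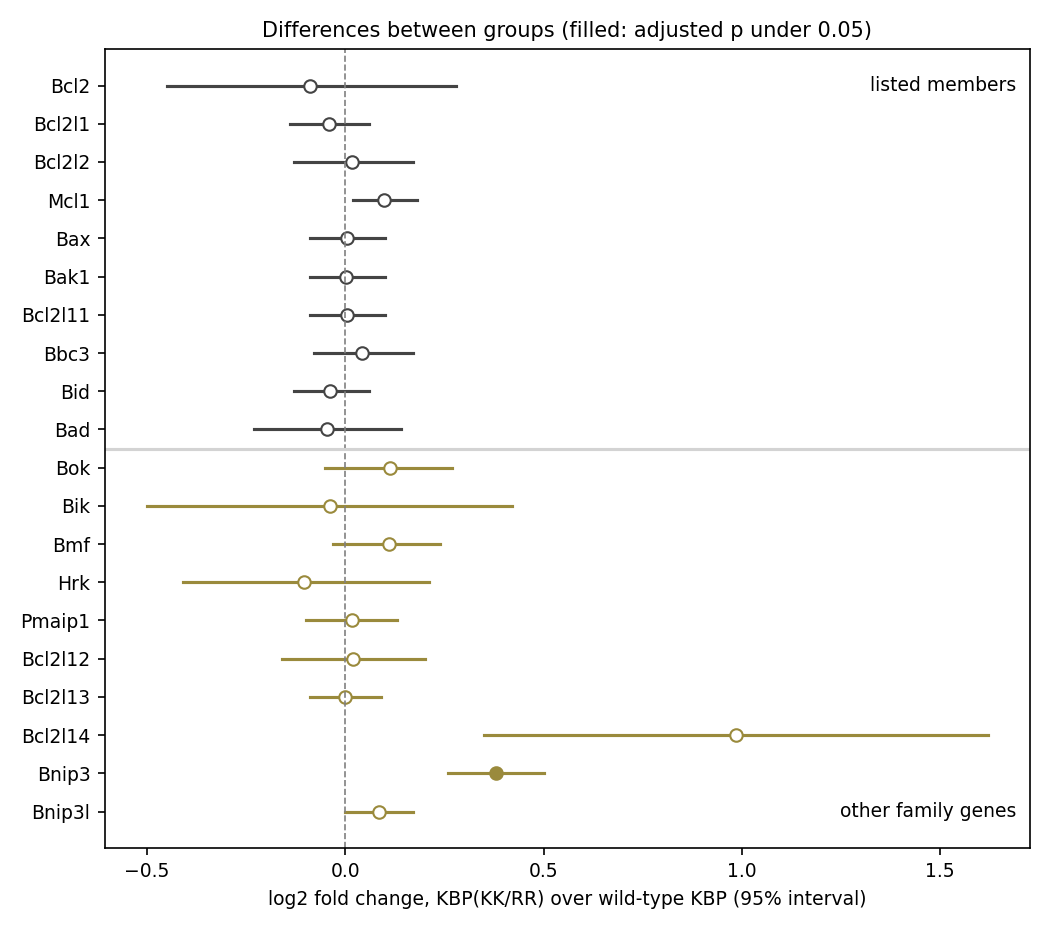
Log2 fold change of KBP(KK/RR) over wild-type KBP with its 95% interval, for the 10 listed members above the line and 10 other family genes below it. The filled point marks the gene with an adjusted p under 0.05, Bnip3 at 0.38. Bcl2l14 is farthest right at 0.99 but was not called.

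Among the remaining BH3-only genes, Pmaip1, which encodes Noxa, a partner of Mcl-1, measured 34.5, 35.0 and 37.6 CPM in KBP(KK/RR) cells and 36.5, 35.6 and 33.8 CPM in wild-type KBP cells (log2 fold change 0.02, edgeR adjusted p = 0.902). Bmf measured 18.6, 20.6 and 18.9 CPM in KBP(KK/RR) cells and 18.2, 17.4 and 18.3 CPM in wild-type KBP cells. Bmf thus did not overlap between groups, but its log2 fold change of 0.11 (SE 0.07) had an edgeR adjusted p of 0.392. Bik and Hrk were scarce, with means of 1.35 and 2.48 CPM in KBP(KK/RR) cells and 1.36 and 2.65 CPM in wild-type KBP cells, and were not called (edgeR adjusted p 0.950 and 0.757). The effector-like gene Bok averaged 12.7 ± 0.933 and 11.7 ± 0.448 CPM in KBP(KK/RR) and wild-type KBP cells (edgeR adjusted p = 0.466), and Bcl2l12 11.3 ± 1.26 and 11.1 ± 0.542 CPM (0.932). Bcl2l13, a mitophagy receptor gene, averaged 83.9 ± 2.70 and 83.9 ± 2.37 CPM. Bcl2l14 had a low level but a large ratio, at 0.807, 0.939 and 0.606 CPM in KBP(KK/RR) cells and 0.306, 0.436 and 0.417 CPM in wild-type KBP cells. Its groups did not overlap, and the log2 fold change of 0.99 (SE 0.31, interval 0.35 to 1.62) missed the threshold (edgeR adjusted p = 0.0813). Bcl2l10 had 18 counts over the KBP(KK/RR) libraries and 8 over the wild-type KBP libraries, and Bcl2l15 18 and 22, all under the filter. Bcl2a1a, Bcl2a1b and Bcl2a1d, blood cell genes of the pro-survival class, had 0 counts in every library.

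No gene was called in the lists for mitochondrial release and the apoptosome, caspases, inhibitors of apoptosis or the death receptor pathway. The mitochondrial release and apoptosome list held, besides released factors and apoptosome parts, the channel genes Vdac1, Vdac2 and Vdac3, and Mtch2, Opa1 and Dnm1l. Of its 13 tested genes edgeR called 0 (median log2 fold change 0.03), against 3.12% of all genes tested. DESeq2 called 0 of the 12 it could adjust. An unadjusted p under 0.05 was reached by 3 of the 13, against 18.6% of all genes tested. The cytochrome c gene Cycs averaged 244 ± 6.35 CPM in KBP(KK/RR) cells and 237 ± 6.08 CPM in wild-type KBP cells. The apoptosome scaffold gene Apaf1 averaged 85.9 ± 5.43 CPM in KBP(KK/RR) cells and 80.7 ± 3.35 CPM in wild-type KBP cells. The smallest p of that list belonged to the channel gene Vdac3 (log2 fold change 0.10, SE 0.04, edgeR adjusted p = 0.194). Of 7 tested caspase genes edgeR called 0 and 2 had an unadjusted p under 0.05, while DESeq2 called 0 of the 3 with an adjusted p. Of 8 inhibitor of apoptosis genes edgeR called 0, DESeq2 called 0 of 5 with an adjusted p, and 1 had an unadjusted p under 0.05, Birc5, which encodes survivin (0.09, edgeR adjusted p = 0.243). In the death receptor list edgeR called 0 of 12, DESeq2 called 0 of 7 with an adjusted p, and 0 reached an unadjusted p under 0.05. There, Ripk1, a kinase gene of that pathway, came nearest (-0.10, edgeR adjusted p = 0.422).

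Upstream regulators held the remaining calls. Of 13 tested transcriptional regulators of the family 1 rose and 0 fell, against 1.05% and 2.07% of all genes tested. The gene called was Mycn, a MYC family gene active in ES cells. Mycn measured 271, 274 and 295 CPM in KBP(KK/RR) cells, against 254, 242 and 256 CPM in wild-type KBP cells (log2 fold change 0.16, SE 0.04, edgeR adjusted p = 0.0379). That call was lost in limma-voom (0.0600), in limma on the normalized signal (0.0696), and when KBP(KK/RR) replicate 5 (0.0620) or 6 (0.260), or wild-type KBP replicate 1 (0.0589) or 2 (0.206), was left out. Trp53, the gene for p53, which drives Bax and Bbc3 after damage, averaged 614 ± 28.8 CPM in KBP(KK/RR) cells and 597 ± 23.4 CPM in wild-type KBP cells (log2 fold change 0.04, edgeR adjusted p = 0.636). Of the 13, 6 log2 fold changes were positive and 7 negative. An unadjusted edgeR p under 0.05 was reached by 4 (18.6% of all genes tested), and 4 had groups without overlap (22.4% of all). Mdm2 was among both, higher in KBP(KK/RR) cells but not called (log2 fold change 0.13, edgeR adjusted p = 0.0834).

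Of 24 tested genes whose proteins modify or bind BCL2 family proteins 1 rose and 0 fell. Pim2, a survival kinase gene whose protein phosphorylates Bad, measured 65.9, 71.8 and 71.7 CPM in KBP(KK/RR) cells, against 57.2, 56.5 and 56.8 CPM in wild-type KBP cells. The groups did not overlap, and the log2 fold change was 0.30 (SE 0.05, 1.23-fold, edgeR adjusted p = 0.00101), called under each alternative with a range from 0.27 to 0.34. The sister kinase gene Pim1 had a log2 fold change of -0.02 and Pim3 of -0.10, neither called (edgeR adjusted p 0.842 and 0.176). Huwe1, which encodes a ubiquitin ligase of Mcl-1 and is named here after its values were seen, varied most among libraries, at 987, 731 and 638 CPM in KBP(KK/RR) cells and 800.2, 1197 and 1221 CPM in wild-type KBP cells. The groups overlapped, with a log2 fold change of -0.45 (SE 0.26, edgeR adjusted p = 0.455). Other listed genes spread widely too. Birc6, an inhibitor of apoptosis gene, averaged 109 ± 25.1 CPM in KBP(KK/RR) cells and 148 ± 31.3 CPM in wild-type KBP cells (-0.45, edgeR adjusted p = 0.448). Usp9x averaged 562 ± 83.1 and 644 ± 65.0 CPM (-0.20, edgeR adjusted p = 0.542). Over all 84 tested genes of these lists, each counted once, 3 rose and 0 fell, where 1.05% and 2.07% of all genes tested did. An unadjusted p under 0.05 was reached by 17 of the 84 (18.6% of all genes tested), and 19 had groups without overlap (22.4% of all).

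**Figure D4:**
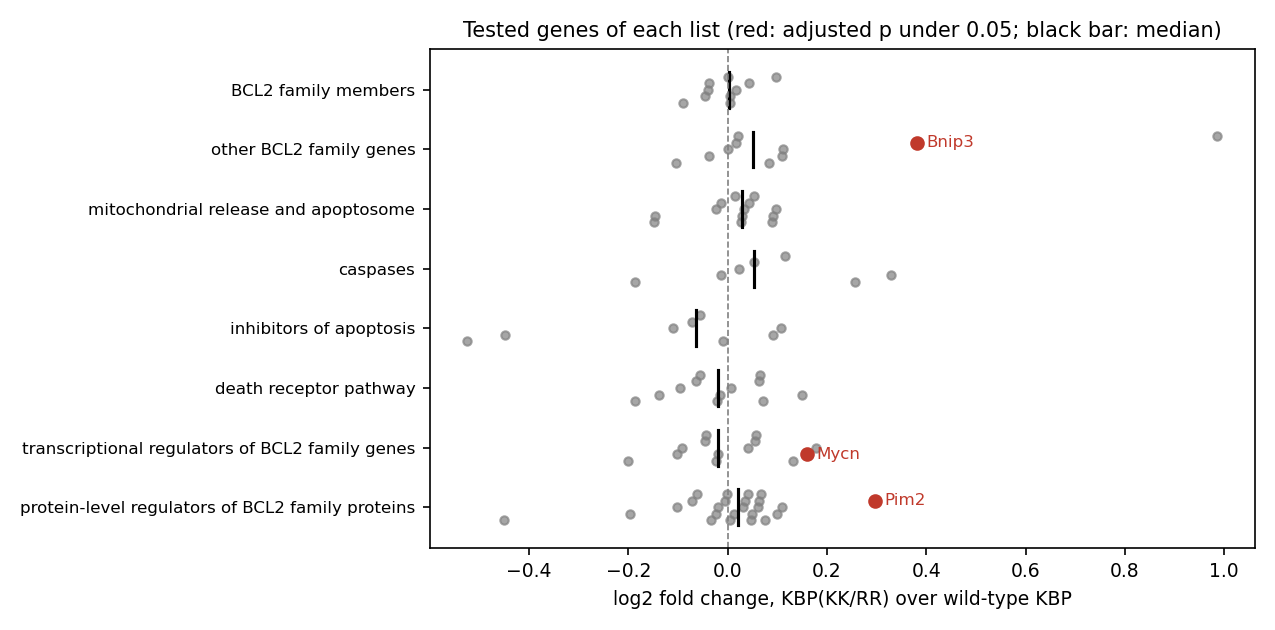
Log2 fold change of KBP(KK/RR) over wild-type KBP for the tested genes of each list (points), with the list's median as a black bar and called genes in red. Bnip3 (0.38), Pim2 (0.30) and Mycn (0.16) are the called genes, and the 10 BCL2 family members lie between -0.09 and 0.10.

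The genes whose pattern over the 6 libraries was most like that of Mcl1, the member with the smallest p, were found among 10782 other genes whose log2 CPM averaged 2 or more. Likeness was the root mean square difference of log2 CPM, each gene centred on its mean. The nearest were Cnbp, a nucleic acid-binding protein gene (0.00820), Rbbp4, a histone-binding protein gene (0.00922), Hspa14, an HSP70 family gene (0.0102), Ppia, the cyclophilin A gene (0.0107), and 0610009B22Rik (0.0109). The median distance over all genes searched was 0.0874. None of the 5 was called, and their groups did not overlap, which the choice by likeness to Mcl1 fixes. Cnbp measured 748, 739 and 777 CPM in KBP(KK/RR) cells and 721, 713 and 680.0 CPM in wild-type KBP cells (edgeR adjusted p = 0.160).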

How the data were processed

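Libraries were made with ScriptSeq v2 after RiboZero removal of ribosomal RNA, per the labels' protocols. TopHat, HTSeq, DESeq2 and bcl2fastq, and the builds mm10 and GRCm38, are named in the submitters' processing notes. Their versions, the annotation and the strand setting were not stated there. The authors deposited raw counts per gene symbol and a normalized signal, which by its values is each count divided by 1 factor per library: 100% of its values above 0 came out as whole reads within 0.01, and 0 differed from the raw counts. On these recovered reads edgeR called 448 genes, as on the counts.

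The counts were tested with edgeR 4.0.16 under R 4.3.3 (filterByExpr, TMM factors, robust quasi-likelihood fit, 14340 genes, Benjamini-Hochberg adjustment over all of them, called under 0.05). Log2 fold changes are KBP(KK/RR) over wild-type KBP, SE is the log2 fold change over the square root of F, and intervals use the fit's degrees of freedom. Replicate libraries differed by more than counting noise (chi-square per degree of freedom 2.70 to 7.17). Lengths and coordinates came from GENCODE M21, promoters from RefSeq on GRCm38.p6. Of 23420 symbols 373 could not be matched to that annotation by current or older symbol. Alternatives used DESeq2 1.42.0, limma 3.58.1, other scalings and filters, removal of a smooth trend over length and GC content, and leaving out each library; the recovered reads were added after seeing the data. The procedure was tested on simulated counts. Named were the 10 members, all genes of the other-family list, called genes of the other lists or else that with the smallest p, and 5 genes nearest to Mcl1. One gene that this rule names is not reported here. Others (Cycs, Apaf1, Trp53, Mdm2, Pim1, Pim3, Huwe1, Usp9x, Birc6, Klf4, Dppa5a, Col3a1, Gata4, Gata6, Sox17, Dab2, the overlapping genes) were chosen after their values were seen. The members and lists were chosen with earlier results of these data known.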

Additional observations from a re-analysis of the deposited data

How the results depend on the processing

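No member passed the threshold under any of the 16 alternatives (159 values, smallest adjusted p 0.0900 for Mcl1 in edgeR), and 142 kept their sign. These values include those of the recovered reads, which equal the raw counts and so could not differ from the main fit. Of the 17 that turned, 16 came from leaving out a library and 1 was Bak1 in limma on the normalized signal (-0.00013); no scaling turned a member. When each library was left out in turn, log2 fold changes ran from -0.16 to 0.02 for Bcl2, -0.04 to 0.07 for Bcl2l2, -0.02 to 0.06 for Bax, -0.02 to 0.03 for Bak1, -0.02 to 0.02 for Bcl2l11, -0.01 to 0.11 for Bbc3 and -0.14 to 0.02 for Bad. Those of Mcl1 (0.08 to 0.11), Bcl2l1 (-0.07 to -0.01) and Bid (-0.06 to -0.01) kept their sign. Among the other genes for which these values were taken, the ranges that crossed 0 were -0.29 to 0.16 for Bik, -0.02 to 0.04 for Pmaip1, -0.07 to 0.07 for Bcl2l12, -0.02 to 0.02 for Bcl2l13 and -0.04 to 0.02 for Pou5f1. They were not taken for Cycs, Apaf1, Trp53, Mdm2, Pim1, Pim3, Huwe1, Usp9x, Birc6, Gpr137, Ggnbp1, Klf4, Dppa5a, Col3a1, Gata4, Gata6, Sox17, Dab2 or the genes nearest to Mcl1.

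Over all genes, 151 were called higher and 297 lower. The counts were 70 and 228 with DESeq2, 78 and 192 with limma-voom, 82 and 197 with limma on the normalized signal, 284 and 682 without a filter, 255 and 479 once the length and GC trend was removed, and 235 and 205 with upper-quartile scaling. They were 42 and 88 at an adjusted p under 0.01, 309 and 514 under 0.1, and 37 to 198 and 85 to 569 when each library was left out. In the other apoptosis lists, 2 to 3 genes were called higher when each library was left out, and 5 under 0.1. The number was 4 with upper-quartile scaling and 4 without a filter, each with Mdm2 added (edgeR adjusted p 0.0486 and 0.0429). It was 6 once that trend was removed, with Apaf1, Trp73 and Foxo1 added (edgeR adjusted p 0.0419, 0.0406 and 0.0357). The sign turned for Pmaip1 with the trend removed (-0.03), for Pou5f1 with upper-quartile scaling (0.0022), and for Bcl2l13 in limma-voom (0.00091), with upper-quartile scaling (0.02), library totals (0.004), the stricter filter (0.0029) and the trend removed (0.06). The cause of these changes was not tested.

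Per kilobase of the union of exons, levels were 165 for Bax, 22.2 for Bid, 12.8 for Bcl2l1, 15.6 for Bbc3, 6.30 for Bcl2l11, 3.53 for Bad, 3.75 for Bcl2l2 and 0.202 for Bcl2 CPM. No paired analysis was possible because the groups share no replicate numbers. Depth limits Bcl2 most, with 37 to 58 counts a library.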
